A study of Mus musculus with 72 samples.

Results

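Chitinase-like and antimicrobial defence genes were followed in the olfactory epithelium of young mice, the tissue that holds the smell receptors. The set holds 9 genes taken by symbol from a list of innate defence genes, out of 54532 genes in the count table: Chil4, Chil3, Chia1, S100a8, S100a9, Ltf, Reg3g, Ngp and Camp. The genes were chosen by their levels after birth and by their levels with doxycycline (DOX) in control mice, where Chil4 and S100a8 were higher than without it, so both of those comparisons are described here and not tested. Of the 9 genes, 8 passed the filter on low counts that left 22144 genes for testing. Camp did not pass it and is given by its values alone.

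The 72 libraries came from mice of 3 genotypes. The allele Omp-IRES-tTA, present in the mice called control, yields the tetracycline-controlled activator tTA where Omp is on, a marker gene of mature smell-sensing neurons. In the mice called ectopicFzd1 the same allele was joined by tetO-Fzd1-IRES-tdTomato, through which tTA turns on the Wnt receptor gene Fzd1, together with the fluorescent protein tdTomato, as long as no DOX is given. The mice called Fzd1lacZ carried a knockout allele of Fzd1, and their comparison partners were the Omp-IRES-tTA controls, not wild-type littermates. Sample titles mark Fzd1lacZ as homozygous (homo), ectopicFzd1 as heterozygous (het) for the tetO-Fzd1 line, and control as wt or ctrl of that line. Without DOX, samples of the 3 genotypes were taken on postnatal days P0, P3, P7, P10 and P14. Control and ectopicFzd1 mice given DOX from birth (P0) on were sampled on days P1, P3, P7, P10 and P14. Of these 25 groups, 22 held 3 libraries, and 2 control groups (no DOX, P3 and P7) and 1 ectopicFzd1 group (no DOX, P14) held 2. Separate animals are not stated for the libraries of a group, and p-values therefore reflect the spread between these samples, which may be technical. In ectopicFzd1 the transgene runs without DOX and is held off with it, so the drug and the transgene cannot be told apart there.

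Gene counts per library ranged from 1.315 M to 8.788 M with a median of 4.28 M, and 3 counts were worth 0.3288 to 4.382 CPM (counts per M of the scaled library size). A single predicted gene, Gm10800, took 0.04072% to 51.09% of gene counts, and over 20% in 6 libraries. Fzd1 itself checked the labels. It was at 20.94 to 44.27 CPM in control without DOX and at 3.477 to 20.31 CPM in Fzd1lacZ. In ectopicFzd1 without DOX it was at 205 to 2122 CPM in 13 libraries, while replicate 3 of P3 so labelled held 42.99 CPM. In control with DOX it was at 20.69 to 54.33 CPM in 14 libraries, while replicate 1 of P7 so labelled held 3.448 CPM. Omp, the locus of the driver allele, differed between groups that carry the allele by their labels. It was at 27.79 to 61.13 CPM in control without DOX at P3, P7 and P10 but at 184.6 to 287.3 CPM at P0 and at 1329 to 1514 CPM at P14. With DOX, control was at 23.85 to 36.18 CPM at P3 and at 218.1 to 1444 CPM at the other 4 ages, while ectopicFzd1 was at 20.56 to 63.56 CPM at all 5. The number of copies of Omp-IRES-tTA is not stated in the labels, and the part of this difference in the results below was not tested. Replicate numbers name the libraries in accession order and carry no pairing. In ectopicFzd1 with DOX, a common title ID is found in the 3 libraries of P3, and another in 1 library each of P10 and P14.

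The members belong to several arms of innate defence. Chia1 makes acidic mammalian chitinase, an enzyme that cuts chitin, the polymer of fungal walls and of insect and mite skeletons. Chil3 and Chil4 make chitinase-like proteins, also called Ym1 and Ym2, which keep the fold of the family without the cutting activity. They are known from type 2 (allergic) inflammation, Chil3 mainly in macrophages and neutrophils and Chil4 mainly in epithelium. S100a8 and S100a9 make the subunits of calprotectin, a protein that withholds zinc and manganese from microbes and is abundant in neutrophils. Ltf makes lactoferrin, an iron-binding protein of secretions and of neutrophil granules. Ngp and Camp make proteins of the secondary granules of neutrophils, Camp being the mouse cathelicidin. Reg3g makes a secreted C-type lectin of epithelia that kills Gram-positive bacteria.

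The genes lie in a few clusters of the mouse genome (build mm10, GENCODE annotation). Chil4 lies at chr3:106201490-106219507 on the minus strand, 33.9 kb from Chil3 at chr3:106147554-106167564, also on the minus strand. Chia1 lies at chr3:106113229-106132120 on the plus strand, 15.4 kb from Chil3. No coding gene lies between these neighbours. On the same chromosome S100a8 (chr3:90668978-90670035, plus strand) and S100a9 (chr3:90692632-90695721, minus strand) lie 22.6 kb apart with no coding gene between them. Reg3g lies at chr6:78466269-78468872 on the minus strand. On chromosome 9 Ltf lies at chr9:111019271-111042767 on the plus strand, Ngp at chr9:110419747-110423012 on the plus strand and Camp at chr9:109847379-109849617 on the minus strand. No annotated gene overlaps any of the 9.

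The sequences of Chil4 and Chil3 show how far reads can tell the pair apart. The mRNAs Chil4-201 and Chil3-201, each of 1539 bases, were identical at 1452 of 1538 aligned bases (94.4%), and 275 of the 1490 stretches of 50 bases in Chil4 (18.5%) occur in Chil3 without a mismatch. Reads from such stretches can be shared or lost in counting, so values of both genes are uncertain to that extent. Chia1-201 had no 50-base stretch in common with Chil4-201, and 70.7% of the aligned bases were identical. The stretch of the coding sequence below runs from coding base 827 to 916, counted from 1 at the start codon, and is shown because it holds 12 of the differences that separate the pair, in capitals (GENCODE transcripts).
Chil4: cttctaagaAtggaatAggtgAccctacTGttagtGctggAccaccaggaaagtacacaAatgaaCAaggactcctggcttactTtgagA
Chil3: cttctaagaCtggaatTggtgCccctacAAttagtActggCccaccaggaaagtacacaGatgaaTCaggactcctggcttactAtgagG

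The promoters of the pair are printed because both genes were higher at P14 than at P0. The RefSeq sequence (GRCm38.p6) of 120 bases that ends in the TATAAA box, in capitals, is at chr3:106219505-106219624 for Chil4 and chr3:106167562-106167681 for Chil3, both read on the minus strand.
Chil4: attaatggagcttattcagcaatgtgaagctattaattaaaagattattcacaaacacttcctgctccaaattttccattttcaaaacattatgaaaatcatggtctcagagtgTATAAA
Chil3: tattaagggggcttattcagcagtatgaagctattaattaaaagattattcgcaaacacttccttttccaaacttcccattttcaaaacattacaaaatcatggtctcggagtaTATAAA
Of 119 aligned bases 107 (89.9%) were identical. Promoters of 300 bases, matched for all 9 genes by symbol, were searched on both strands for 4 motifs, with all 32851 RefSeq promoters of the same length as the background. The letters TATAAA occur in 6 of the 9 (Chil4, Chil3, Chia1, S100a8, S100a9 and Reg3g) and in 13.6% of all promoters. The letters TTCNNNGAA, a STAT type site, occur in Chil4 and Chil3 and in 8.3% of all promoters. The letters TTGCNNAA, a C/EBP type site, occur in Chil4, Ltf, Ngp and S100a9 and in 10.8% of all promoters. The letters TTCNNNNGAA, a STAT6 type site found in 6.95% of all promoters, occur in none of these windows of the 9 genes. The searched motifs share few letters, but TTCNNNGAA and TTCNNNNGAA can overlap.

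On the length-scaled TPM (transcripts per M) scale, which allows levels of different genes to be set side by side, Reg3g was the most abundant of the 9 over the 72 libraries, with a median of 682.5 TPM, followed by Ltf at 158.6 TPM. S100a8 (13.64 TPM) and S100a9 (12.16 TPM) came next and their ranges overlapped almost wholly, from 1.72 to 73.55 and from 2.58 to 116.9 TPM. Chia1 (3.395 TPM), Chil4 (2.375 TPM) and Chil3 (0.87 TPM) followed, and their ranges overlapped too. Ngp (0.29 TPM) and Camp (0.175 TPM) were near the limit of detection. Chil4 ranged from 0 to 326.3 TPM. All other values below are in CPM, which serves to compare 1 gene between libraries.

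Libraries of the same group differed more in Chil4 than in any other member. The standard deviation of its log2(CPM + 1) within groups was 1.3, the 36th highest of 22144 genes, above 99.8% of them. The added 1 narrows the spread of genes near or under 1 CPM, so this ranking depends on level too. The standard deviation was 0.676 for Chil3, 0.638 for Ltf, 0.549 for S100a9, 0.49 for S100a8 and 0.38 for Reg3g. Chia1 was ordinary in this respect, with 0.318, above 49.9% of all genes. Adjusted p-values below are Benjamini-Hochberg values over all 22144 genes, from edgeR's quasi-likelihood test unless another tool is named, and a gene with a value under 0.05 is called. In bulk tissue, fewer cells that express a gene and less RNA of it per cell cannot be told apart.

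**Figure D1:**
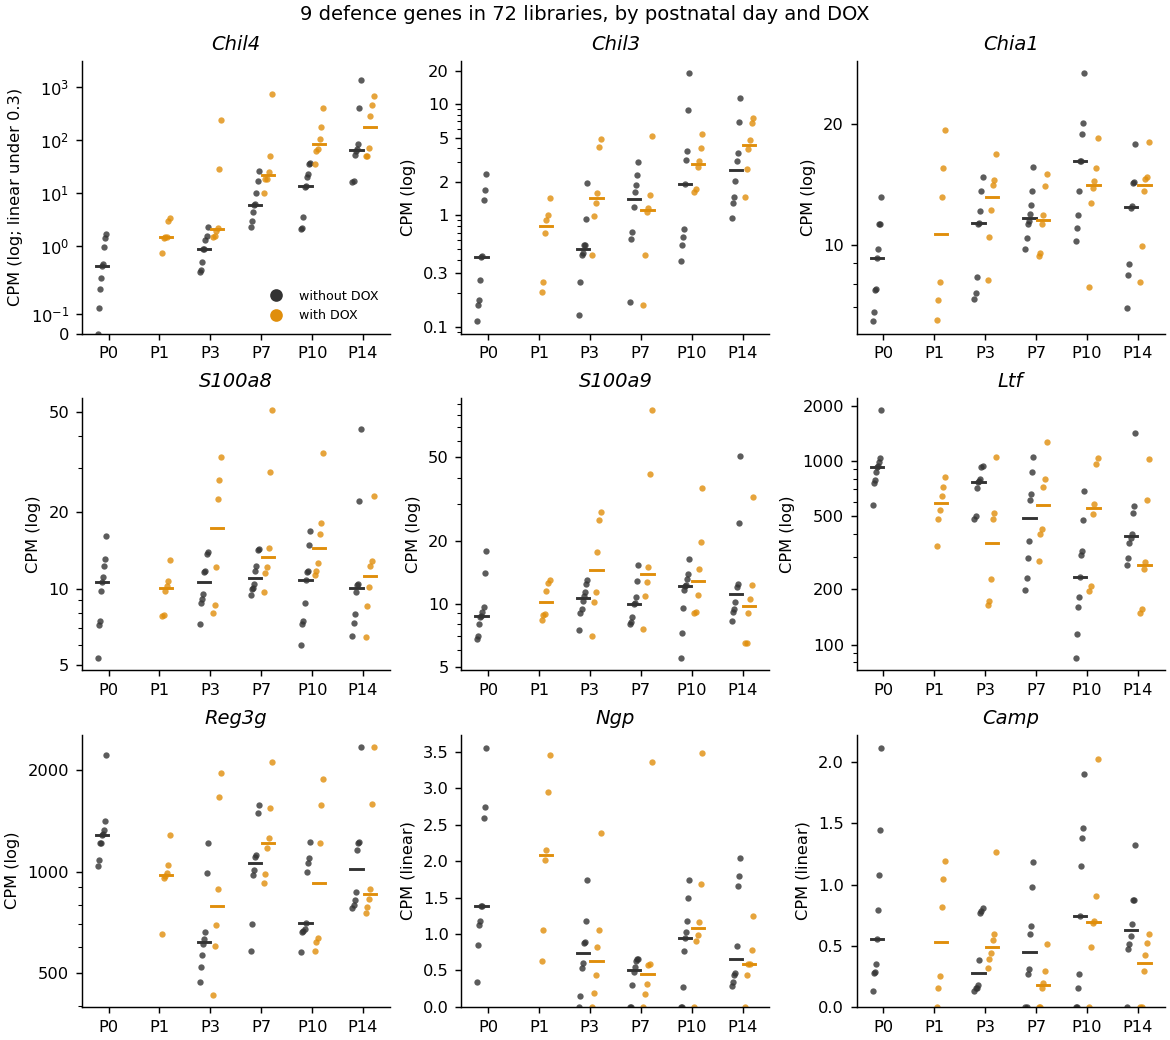
Level of each of the 9 genes in every library, in CPM, against postnatal day, with libraries without DOX in grey and with DOX in orange, all genotypes together, and bars at medians (log axes, linear for Ngp, Camp and Chil4 under 0.3). Chil4 climbs from 0 to 1.687 CPM at P0 to 16.36 to 1336 CPM at P14 without DOX, while Reg3g stays within 432.5 to 2348 CPM at all ages.

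Chil4 was almost silent at birth and was found in every library at P14. Without DOX at P0 it was at 0.2825, 0.4639 and 0 CPM in control, which rested on 2, 3 and 0 counts, and the library without a count allows up to 0.521 CPM. In ectopicFzd1 at P0 it was at 0.2237, 0.4336 and 0.1306 CPM, and in Fzd1lacZ at 0.9889, 1.413 and 1.687 CPM. At P14 without DOX it was at 62.35, 52.34 and 16.75 CPM in control, 82.43 and 16.36 CPM in ectopicFzd1, and 66.18, 1336 and 388.9 CPM in Fzd1lacZ. No library of P14 overlapped any library of P0. In each genotype the title IDs of P0 and P14 begin with different digits, so age and ID series cannot be told apart here either. The log2 difference of P14 against P0 was 7.25 in control, 7.44 in ectopicFzd1 and 8.80 in Fzd1lacZ, with a mean of 7.83 ± 0.91 (SE), a description since the onset chose the gene. Between these ages Chil4 in control was at 1.552 and 0.3581 CPM at P3, at 4.362 and 17.01 CPM at P7 and at 22.49, 35.16 and 13.8 CPM at P10. Neighbouring ages of control overlapped, except that both libraries of P7 lay above both of P3.

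Chil3 had the same direction at a much lower level. Over the 9 libraries of P0 it was at 0.1118 to 2.355 CPM with a median of 0.4238, and over the 8 libraries of P14 without DOX at 0.9434 to 11.33 CPM with a median of 2.537. The ages overlapped, through the Fzd1lacZ libraries of P0 at 1.384, 2.355 and 1.687 CPM. Its log2 difference of P14 against P0 was 2.50 ± 0.54, again a description. The highest value, 18.86 CPM in Fzd1lacZ P10 replicate 1, rested on 13 counts in the shallowest library. The chitinase gene Chia1 showed no such onset and stayed between 6.467 and 26.72 CPM in all 72 libraries, with a log2 difference of 0.43 ± 0.16.

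The remaining members had been present from birth. The log2 difference of P14 against P0 was 0.28 ± 0.25 for S100a8, 0.56 ± 0.28 for S100a9, -1.0 ± 0.29 for Ltf, -0.32 ± 0.18 for Reg3g and -0.77 ± 0.49 for Ngp. On the log2(TPM + 1) scale the values were -0.45 for S100a8, -0.21 for S100a9 and -0.21 for Chia1, of the opposite sign, and -1.82 for Ltf, -1.04 for Reg3g and 4.16 for Chil4, of the same sign. As background, edgeR's quasi-likelihood test called 58.8% of all genes between these ages, and the median of all genes was 0.06 on the count scale and -0.40 on the log2(TPM + 1) scale, so signs on the latter read against that shift.

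For Chil4, the ectopicFzd1 libraries with DOX also gave a difference with age. Postnatal onset was taken here as P14 against P0 without DOX, which these libraries did not enter. The libraries by which the onset was judged are not stated. The test below may therefore not be independent of the choice of the genes. In ectopicFzd1 with DOX, P14 was compared with P1 on a test that called 34.4% of all genes. The title IDs of P1 and P14 begin with different digits there. Age and ID series therefore cannot be told apart in this comparison, for any gene. Of the 8 members 3 were called, Chil4, Chil3 and Reg3g, all higher at P14, a share near that of all genes. On log2(TPM + 1), where limma called 60.5% of all genes, 3 members were called, a smaller share. Chil4 was higher there, and Chia1 and Ngp were lower. Chil4 was at 1.507, 1.505 and 0.7559 CPM at P1 and at 441.4, 663.8 and 68.73 CPM at P14. The ages lay far apart, by 8.29 ± 1.31 on the log2 scale (adjusted p = 8.56e-07). Chil3 was at 1.004, 0.2509 and 0.9071 CPM at P1 and at 6.763, 7.44 and 2.593 CPM at P14, which do not overlap, with a log2 difference of 3.06 ± 0.80 (adjusted p = 0.00175). In limma on log2(TPM + 1) the difference of Chil3 was 0.47 (adjusted p = 0.332), so its call rests on the counts. Reg3g was at 653.4, 957.9 and 1284 CPM at P1 and at 1585, 2348 and 889.1 CPM at P14, which overlap, with a log2 difference of 0.74 ± 0.30 (adjusted p = 0.0453 by edgeR's quasi-likelihood test) that turned to -0.43 (adjusted p = 0.393) on log2(TPM + 1), where the median of all genes was at -0.71. Its call was lost without P14 replicate 1 or 2 or without P1 replicate 1 or 2, and the difference without 1 library ranged from 0.36 to 1.03. Chia1, S100a8, S100a9, Ltf and Ngp did not pass the threshold on the counts, with log2 differences between -1.04 for Ngp and 0.62 for S100a9. In limma Chia1 was at -1.03 (adjusted p = 0.00473) and Ngp at -0.86 (adjusted p = 0.00219) on log2(TPM + 1), and at -1.20 (adjusted p = 0.0161) and -2.67 (adjusted p = 0.00163) on log2(TPM + 0.1). Of 10 genes of Bowman glands and nasal secretion 4 rose and 2 fell between the same ages, with Obp2b at 7.80, Lcn3 at 6.28, Obp2a at 3.11 and Sox9 at -1.73 on the log2 scale. Their part in the values of the members was not tested. The median log2 difference of the 8 members was 0.56, beside 0.01 for all genes.

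DOX went with higher Chil4 in control mice, the comparison that chose it. Control without DOX from P3 to P14 was at 0.3581 to 62.35 CPM (median 16.88, 10 libraries) and control with DOX at 1.59 to 737.8 CPM (median 49.17, 12 libraries). At P3 the libraries with DOX were at 28.02, 236.2 and 1.59 CPM and those without at 1.552 and 0.3581 CPM. At P7 those with DOX were at 18.34, 737.8 and 9.852 CPM and those without at 4.362 and 17.01 CPM. One library stood above the rest at each of these ages, the lowest library with DOX at P3 lay just above those without, and at P7 the groups overlapped. At P10 the libraries with DOX were at 61.12, 66.1 and 34.76 CPM and at P14 at 280.9, 49.66 and 48.67 CPM, which overlapped the libraries without DOX at both ages. The log2 difference with DOX was 6.45 (P3), 4.59 (P7), 1.16 (P10) and 1.56 (P14), with a mean of 3.44 ± 0.61. At P3, P7 and P10 the title IDs of control with and without DOX begin with different digits. Drug and ID series therefore cannot be told apart at these ages, for any gene. At P14 the first digits are the same. Of the 22144 genes, 0.867% were called in this comparison, which is given as background only.

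**Figure D2:**
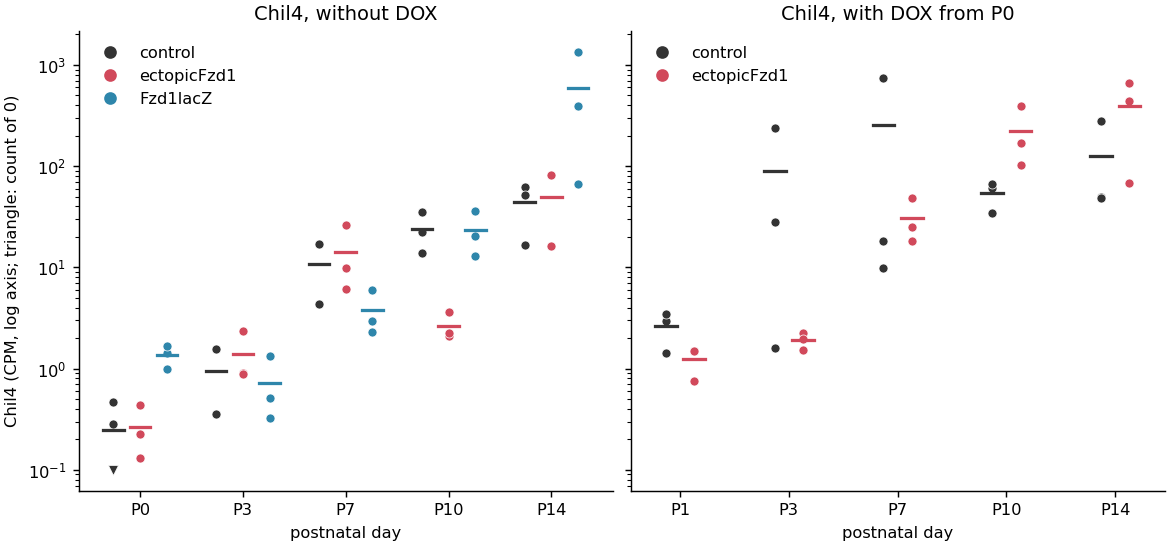
Chil4 in CPM on a log axis in every library against postnatal day, without DOX in 1 panel and with DOX in the other, coloured by genotype, with bars at group means and a triangle for a count of 0. With DOX the 3 ectopicFzd1 libraries of P3 lie at 1.53 to 2.241 CPM and those of control at 1.59 to 236.2 CPM, and by P10 ectopicFzd1 lies at 102.3 to 388.6 CPM.

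The same drug was given to ectopicFzd1 mice, whose libraries with DOX took no part in the choice of the genes as taken here. Their libraries without DOX at P14 did, through the onset. Chil4 was the 1 member of 8 called there in the average over the 4 ages P3 to P14, on a test that called 7.5% of all genes. It was at 1.53, 2.241 and 1.957 CPM with DOX at P3 and at 0.9121, 0.8886 and 2.345 CPM without, which overlap. At P7 it was at 48.77, 24.99 and 18.32 CPM with DOX and at 26.35, 9.95 and 6.138 CPM without, which overlap too. At P10 it was at 102.3, 170.8 and 388.6 CPM with DOX and at 2.114, 3.633 and 2.239 CPM without, with no overlap and a wide gap. At P14 it was at 441.4, 663.8 and 68.73 CPM with DOX and at 82.43 and 16.36 CPM without, which overlap. Of 10 neuron markers 8 rose in this comparison, and of 10 genes of Bowman glands and nasal secretion the odorant-binding protein gene Obp2a fell, by 1.41 on the log2 scale (adjusted p = 0.0204 by edgeR). Over these ages Chil4 was 7.12-fold higher with DOX, 2.83 ± 0.89 on the log2 scale with a 95% interval of 1.08 to 4.58 (adjusted p = 0.0374 by edgeR's quasi-likelihood test). An exact permutation of DOX within ages on log2(CPM + 1), chosen after the data were seen, gave a mean difference of 2.52, higher at 4 of 4 ages, with a 2-sided p of 0.0015, where the smallest possible is 2.5e-05. The permutation treats libraries as independent, although the 3 with DOX at P3 carry 1 title ID, and 1 library each of P10 and P14 share another. At P3 the ID series also differs between libraries with and without DOX. The call lay close to the threshold. It was lost with DESeq2 size factors (adjusted p = 0.0523), without P14 (log2 difference 2.77, adjusted p = 0.0953), and in 8 of the 23 fits that left out 1 library. Those 8 libraries were, without DOX, P3 replicate 2, P7 replicate 3 and P14 replicate 2, and with DOX, P3 replicates 1, 2 and 3, P10 replicate 3 and P14 replicate 2, and adjusted p over all 23 fits ranged from 0.0271 to 0.121.

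At single ages in the same genotype, Chil4 rose with DOX at P10 by 6.30 ± 1.21 on the log2 scale (adjusted p = 0.00109), where 1.77% of all genes were called. This call held in each of the 6 fits without 1 library, with log2 differences of 5.61 to 6.66. Without DOX the P10 libraries of ectopicFzd1 were also below those of control (2.114 to 3.633 against 13.8 to 35.16 CPM, log2 difference -3.09, adjusted p = 0.128), where 10.3% of all genes were called. At P14 the log2 difference with DOX was 3.01 (adjusted p = 0.324), and 0.375% of all genes were called. Chil3 had a log2 difference of 1.16 ± 0.47 with DOX over the 4 ages (adjusted p = 0.133). Ltf fell with DOX at P3, from 711.4, 798.7 and 503.7 CPM to 228.4, 165.2 and 172.8 CPM, which do not overlap, by 1.83 ± 0.49 on the log2 scale (adjusted p = 0.00801), where 14.6% of all genes were called. One of those libraries without DOX is replicate 3, whose Fzd1 went against its label, and the call held without it and without each of the others, with log2 differences of -1.999 to -1.687. On log2(TPM + 1) the call on Ltf was lost. All 3 libraries with DOX in that comparison carry the same title ID, and its first digits differ from those of the libraries without DOX, so that series and drug cannot be told apart at P3. Markers of several other cell types fell at the same age. Of the genes of Bowman glands and nasal secretion 3 of 10 fell, Obp2a (-4.85), Odam (-4.11) and Bpifb9b (-3.51), as did 4 of 6 ciliated cell genes, Dnah5 (-1.07) and Sntn (-0.99) among them. So did 3 of 9 macrophage genes, with Mrc1 at -1.24, 4 of 7 bone genes, with Col1a1 at -1.28, and 3 of 7 granule genes, Mmp9 (-2.16), Hp (-1.61) and Anxa1 (-0.87), while Lcn2 rose by 1.94 and 4 of 10 neuron genes rose. Their part in the fall of Ltf was not tested. At P7, where 0.56% of all genes were called, no member was.

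For ectopic Fzd1 no member was called in the model of all 25 groups. In ectopicFzd1 against control without DOX, over P0 to P14, none of the 8 members was called by edgeR's quasi-likelihood test, which called 9.19% of all genes. A single member, Chia1, had an unadjusted p under 0.05, with a log2 difference of 0.30 ± 0.12 (adjusted p = 0.134), and DESeq2 also called none. The 95% interval of the log2 difference was -2.83 to 1.81 for Chil4, so a change of several fold in either direction lies within it, but -0.21 to 0.34 for Reg3g. At the single ages that model called no member either, where 0.754% (P0), 0.569% (P3), 0.704% (P7), 10.3% (P10) and 1.76% (P14) of all genes were. At P14 the title IDs of ectopicFzd1 and control without DOX begin with different digits, so genotype and ID series cannot be told apart there. The mean over ages includes this age. Other fits made calls at P10. DESeq2 called Chil4 lower, at -3.21 (adjusted p = 0.0274). A model of the compared groups alone called Chil4 (-3.12, adjusted p = 0.00179 in edgeR) and Chil3 (-2.34, adjusted p = 0.0173) lower and S100a8 (1.05, adjusted p = 0.00844) and S100a9 (0.90, adjusted p = 0.0281) higher, on 4.42% of all gene tests at single ages. The test for a difference of this effect among ages called 0.357% of all genes and no member.

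In the knockout, none of the 8 members was called over P0 to P14, where 2.85% of all genes were, and DESeq2 called none. At P0, P3, P7 and P10 the title IDs of Fzd1lacZ and control begin with different digits. Genotype and ID series therefore cannot be told apart at any age but P14, for any gene, and the mean over ages carries this limit. Chil3 (log2 difference 1.10 ± 0.43, adjusted p = 0.17) and S100a8 (0.50 ± 0.20, adjusted p = 0.18) had unadjusted p under 0.05. At P14, where 0.714% of all genes were called, Chil4 was the 1 member called. It was at 66.18, 1336 and 388.9 CPM in Fzd1lacZ and at 62.35, 52.34 and 16.75 CPM in control. All 3 knockout libraries lay above all 3 controls, the lowest by a small margin, and the log2 difference was 3.79 ± 0.92 (adjusted p = 0.0263 by edgeR's quasi-likelihood test). Without Fzd1lacZ P14 replicate 2 it was 2.42 (adjusted p = 0.347), and the call was also lost without control P14 replicate 1, 2 or 3. On log2(TPM + 1) it was lost too. The P14 libraries of both genotypes also entered the onset comparison that chose the genes, and the control libraries the DOX comparison as well. The call on Chil4 is therefore not independent of that choice. At P14 the knockout libraries were at 3.048, 11.33 and 6.841 CPM for Chil3, all above the controls at 1.283, 2.026 and 0.9434 CPM, with a log2 difference of 2.40 (adjusted p = 0.137). At P0, P3, P7 and P10, where 7.73%, 1.08%, 0.0858% and 0.285% of all genes were called, no member was. The test for a difference of the knockout effect among ages called 2.77% of all genes and no member.

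**Figure D3:**
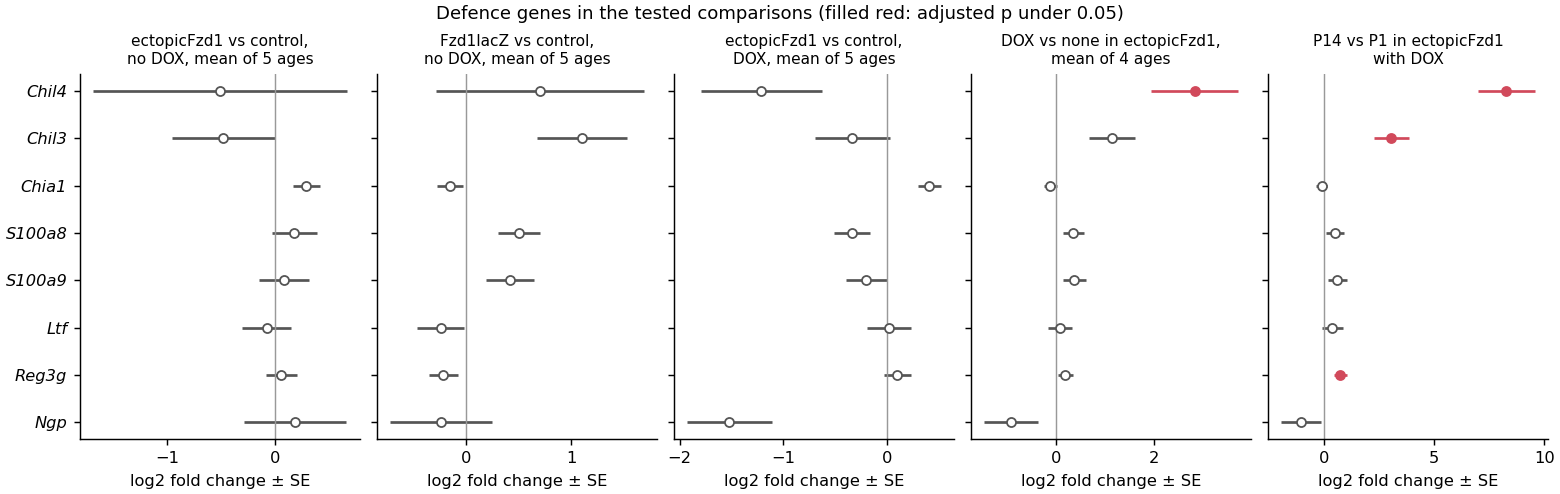
Log2 fold change with its SE for each member in the tested comparisons, with filled red points for adjusted p under 0.05 and a horizontal axis of its own in each panel. Chil4 is called with DOX in ectopicFzd1 (2.83) and between P1 and P14 (8.29), and no member is called in the averaged comparisons of ectopicFzd1 or Fzd1lacZ with control.

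With DOX present the transgene is held off, and ectopicFzd1 and control still differed at Omp, which was lower in ectopicFzd1 over P1 to P14, with a log2 difference of -3.32 (adjusted p = 3.46e-23 in edgeR). By age the difference of Omp was -3.16 (P1), -0.09 (P3), -4.197 (P7), -4.66 (P10) and -4.52 (P14), called at each but P3. At P3, P7, P10 and P14 the title IDs of the 2 genotypes also begin with different digits, so genotype and ID series cannot be told apart at any age but P1. The control libraries with DOX from P3 to P14 are those in which Chil4 and S100a8 were seen to be high when the genes were chosen. A lower value in ectopicFzd1 is therefore partly set by that choice, and the differences at these ages are given as descriptions with no test. Over P1 to P14, with 0.826% of all genes called in edgeR, none of the 8 members was past the threshold. The log2 difference was -1.52 ± 0.41 for Ngp, which rested on 360 counts in 72 libraries, 0.41 ± 0.11 for Chia1 and -1.21 ± 0.59 for Chil4.

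At P1, which took no part in the choice as taken here, 14.8% of all genes were called. Chia1 was the 1 member called, at 19.34, 15.56 and 13.15 CPM in ectopicFzd1 and at 7.291, 6.512 and 8.104 CPM in control. The groups do not overlap, and Chia1 was higher by 1.12 ± 0.25 on the log2 scale (adjusted p = 0.00166 by edgeR's quasi-likelihood test), a call that held in each of the 6 fits without 1 library and on the TPM scale.

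At the later ages the members differed in direction. The median log2 difference of the 8 members was -1.69 at P3 and -0.996 at P7, and 1.15 at P10 and 0.77 at P14, beside medians of all genes between -0.01 and 0.03. Whether the effect differed among ages was not tested. As background only, the test called 0.181% (P3), 0.569% (P7), 0.0858% (P10) and 0.199% (P14) of all genes.

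At P3 Chil4 was at 1.53, 2.241 and 1.957 CPM in ectopicFzd1 with DOX against 28.02, 236.2 and 1.59 CPM in control. The groups overlap, and the log2 difference of -5.55 ± 1.32 was -2.86 without control replicate 2, the library at 236.2 CPM. Reg3g was at 695.3, 432.5 and 602.9 CPM against 888.8, 1673 and 1962 CPM, which do not overlap, with a log2 difference of -1.39 ± 0.30 that ranged from -1.66 to -1.15 without 1 library. The ectopicFzd1 libraries here are the 3 that carry the same title ID.

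At P7 S100a9 was at 15.06, 7.62 and 12.73 CPM in ectopicFzd1 with DOX and at 41.54, 84.04 and 10.88 CPM in control with DOX. Control replicates 1 and 2 were high and replicate 3 lay among the ectopicFzd1 libraries. The log2 difference was -1.95 ± 0.41, and -1.17 without control replicate 2. For Chil4 the difference at P7 was -3.07 with all 6 libraries, and it turned to 1.10 without control replicate 2, the library at 737.8 CPM. Control replicate 1 is the library whose Fzd1, at 3.448 CPM, went against its label, and without it the differences were -2.004 for S100a9 and -3.63 for Chil4. At P10 Reg3g was at 1216, 1883 and 1576 CPM in ectopicFzd1 and at 583.5, 618.5 and 634.9 CPM in control. The groups lie apart, by 1.35 ± 0.30 on the log2 scale, with 1.189 to 1.498 without 1 library.

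S100a8 and S100a9, the calprotectin pair, moved together. The medians over 72 libraries were 11.21 CPM for S100a8 and 10.81 CPM for S100a9, and a few groups held libraries well above that. In control with DOX at P3 S100a8 was at 22.58, 26.83 and 33.19 CPM, beside 7.297 and 9.131 CPM without the drug, and S100a9 at 17.68, 25.14 and 27.42 CPM, beside 9.004 and 7.52 CPM. In control with DOX at P7 S100a8 was at 29, 50.62 and 9.705 CPM, beside 11.72 and 10.44 CPM without. At P3 the libraries with DOX all lay above those without, and at P7 replicate 3 with DOX lay below both. At both ages drug and title ID series cannot be told apart. Over P3 to P14 in control the log2 difference with DOX was 1.04 ± 0.22 for S100a8 and 0.89 ± 0.25 for S100a9, values that belong to the choice of the genes. Without P7 replicate 1, whose Fzd1 went against its label, they were 1.04 and 0.90. In ectopicFzd1 the log2 difference of S100a8 with DOX was 0.83 at P14 and -0.31 at P3, and neither passed the threshold.

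High values of the pair were found outside control with DOX as well. In Fzd1lacZ at P14 S100a8 was at 6.53, 42.57 and 22.19 CPM and S100a9 at 9.143, 50.99 and 24.19 CPM, with log2 differences against control of 1.33 (adjusted p = 0.0885) and 1.39 (adjusted p = 0.124). The highest of these libraries, replicate 2, is also the one with Chil4 at 1336 CPM. In ectopicFzd1 with DOX at P10 S100a9 was at 14.72, 35.67 and 19.66 CPM, and at P14 at 9.018, 32.31 and 6.484 CPM.

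Markers of neutrophils were read in the same libraries, since S100a8, S100a9, Ltf, Ngp and Camp are all found in these cells. The summed level of 12 mature neutrophil genes outside the set ranged from 7.736 to 66.44 CPM with a median of 14.26. It was 34.43 to 63.39 CPM in control with DOX at P3 beside 11.28 to 15.84 CPM without, 9.411 to 66.44 CPM at P7 beside 16.71 to 19.36 CPM without, and 21.02 to 43.87 CPM in Fzd1lacZ at P14 beside 9.434 to 13.09 CPM in control. The highest sum, 66.44 CPM, was in control with DOX P7 replicate 2, the library with the highest S100a8 and S100a9 of all 72. The 6 genes of the primary granules, which mark neutrophil precursors, summed to 6.126 to 10.61 CPM in control with DOX at P3 beside 3.76 to 4.192 CPM without, but to 3.97 to 4.35 CPM at P7 beside 5.725 to 8.95 CPM without, and to 4.338 to 6.966 CPM in Fzd1lacZ at P14 beside 5.425 to 9.117 CPM in control. Of these, Elane had no count in 39 libraries and Ctsg in 35. The macrophage list summed to 119.3 to 123.6 CPM in control with DOX at P3 and 87.09 to 112.4 CPM without. The erythroid list summed to 111.3 to 308.6 CPM in control with DOX at P3 and 74.36 to 91.85 CPM without. At P7 its sums overlapped, at 150.9 to 196.3 CPM with DOX and 147.7 to 154.8 CPM without. They also overlapped at P14, at 111.9 to 229.5 CPM in Fzd1lacZ and 130.6 to 265.8 CPM in control without DOX. The part of neutrophils, or of blood in the samples, in the values of S100a8 and S100a9 was not tested.

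The granule genes Ngp and Camp were too sparse to be followed closely. Ngp was at 0 to 3.557 CPM over the 72 libraries, with no count in 9, and Camp at 0 to 2.12 CPM, with no count in 11 and 186 counts in all. In control with DOX at P7 Ngp was at 0.3135, 3.362 and 0.5882 CPM and Camp at 0.1567, 0.1977 and 0.2941 CPM, the second library being the one with S100a9 at 84.04 CPM. Across the 72 libraries Pearson's r of log2 CPM was 0.89 between S100a8 and S100a9 (0.86 within groups), 0.07 between S100a9 and Ngp and 0.03 between S100a9 and Camp. At these depths, where Ngp and Camp held a median of 3 and 2 counts per library, weak relations with them were not detectable.

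Ltf and Reg3g, the abundant secreted members, varied together. Ltf ranged from 84.72 to 1887 CPM with a median of 521, and Reg3g from 432.5 to 2348 CPM with a median of 996. The lowest Ltf, at 114.6, 160 and 84.72 CPM, was in Fzd1lacZ at P10, where 2 of the libraries, replicates 1 and 3, held 50.71% and 51.09% of their counts in Gm10800. The highest, 1887 CPM, was in ectopicFzd1 without DOX at P0. Reg3g was at 2343 CPM in Fzd1lacZ P14 replicate 2, at 2111 CPM in control with DOX P7 replicate 2 and at 2348 CPM in ectopicFzd1 with DOX P14 replicate 2, the 3 libraries with the highest Chil4 of all 72. Pearson's r was 0.60 between Ltf and Reg3g (0.62 within groups) and 0.54 between S100a9 and Reg3g (0.58 within groups), but 0.33 between S100a9 and Ltf (0.465 within groups). Like all correlations here, these describe log2 CPM over 72 libraries that share groups, ages, depth and composition.

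Chil4 and Chil3 shared their highest library in 19 of the 25 groups, while the other members shared it with Chil4 in 7 to 12. Their r was 0.77 over all libraries and 0.62 within groups, and part of their mRNA is identical, so shared reads may enter this value, which was not tested.

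**Figure D4:**
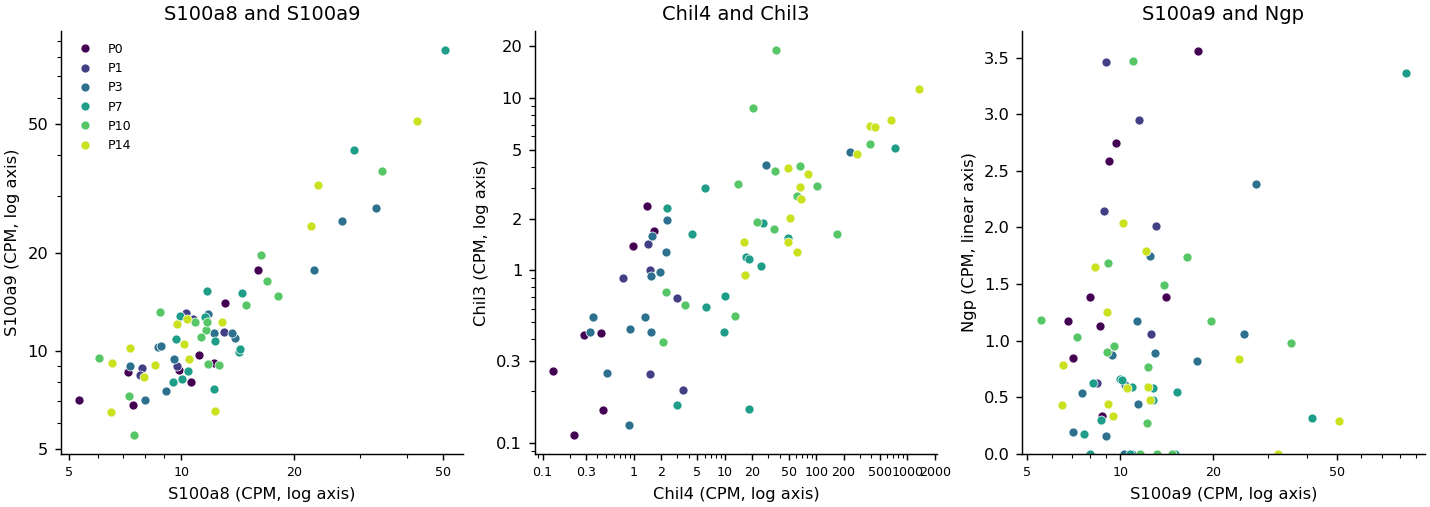
S100a9 against S100a8, Chil3 against Chil4 and Ngp against S100a9 in CPM, 1 point per library, coloured by postnatal day, on log axes except the linear axis of Ngp. The Chil4 and Chil3 panel leaves out the 1 library with a Chil4 count of 0. S100a8 and S100a9 lie along 1 line (r = 0.89), with the library at 50.62 and 84.04 CPM at its end.

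For each member the 3 genes with the most similar profile over the 72 libraries were listed by Pearson's r of log2 CPM, predicted genes left out. For Chil4 these were Cd74 (r = 0.84, 0.53 within groups), the invariant chain of MHC class II, Anks4b (0.79) and the glucose transporter gene Slc2a3 (0.79). Anks4b and Slc2a3 had within-group values of 0.23 and 0.15, so their likeness lay mostly between groups. For Chil3 they were the macrophage elastase gene Mmp12 (0.78), Chil4 and the odorant receptor gene Olfr1307 (0.74). For S100a8 they were S100a9, the interleukin 1 beta gene Il1b (0.69) and Socs3 (0.67), and for S100a9 they were S100a8, Il1b (0.75) and the lipocalin 2 gene Lcn2 (0.725, 0.84 within groups). By ranks these were lower. Spearman's rho was 0.339 for S100a8 with Il1b and 0.444 with Socs3. It was 0.455 for S100a9 with Il1b, 0.438 with Lcn2 and 0.737 between S100a8 and S100a9. For Ltf they were Perp (0.82), the haptoglobin gene Hp (0.81) and Plet1 (0.81), and for Reg3g Ly6a (0.81), Dhrs9 (0.79) and the galectin 3 gene Lgals3 (0.79). Chia1 had no close match, the nearest being Fmo2 at 0.60, Kctd9 at 0.59 and Galnt13 at 0.59. Nor had Ngp, with Mcu at 0.53, Tbc1d8 at 0.53 and Sesn1 at 0.51, or Camp, with Defb1 at 0.40, Cuta at 0.37 and Gpr173 at 0.37.

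Other genes of the same families gave a wider view. Their counts with age in ectopicFzd1 with DOX stand beside the 34.4% of all genes called in that comparison, 14.6% higher and 19.7% lower. Of 7 further chitinase family genes 6 were tested. With age, 2 rose and 1 fell. Chil6 rose by 4.49 ± 0.37 on the log2 scale (adjusted p = 1.04e-14), Chil1 rose by 1.71 ± 0.60 (adjusted p = 0.0217), and Chit1, the chitinase of macrophages, fell by 1.93 ± 0.66 (adjusted p = 0.0176). In the knockout Chil1, another chitinase-like gene, was the 1 of 6 called, higher by 1.59 ± 0.35 (adjusted p = 0.00311) and by 3.09 ± 0.70 at P14 (adjusted p = 0.014), where Chil4 was also higher. In ectopicFzd1 with DOX Chil1 was lower than in control at P7, with a log2 difference of -3.46 ± 0.65, and higher at P14, by 3.88 ± 0.73. Both are descriptions, as for the members at these ages. Chid1 was the 1 called with ectopic Fzd1, higher by 0.24 ± 0.07 (adjusted p = 0.0201). With DOX in ectopicFzd1 none of the 6 was called in the mean over ages.

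Of 9 further secondary and tertiary granule genes 7 were tested, and with DOX in ectopicFzd1 1 rose and 1 fell. Lcn2, which withholds iron from bacteria and is made by epithelium as well as by neutrophils, rose by 1.78 ± 0.31 (adjusted p = 3.67e-05), and the protease gene Mmp9 fell by 0.65 on the log2 scale (adjusted p = 0.00979). Of 12 mature neutrophil genes 9 were tested, and the receptor gene Csf3r was the 1 called there, higher by 1.05 ± 0.25 (adjusted p = 0.00357). None of the 3 tested primary granule genes was called in any of the 5 averaged comparisons. In the knockout at P14 Lcn2 (3.22 ± 0.62, adjusted p = 0.00197) and Il1b (2.31 ± 0.59, adjusted p = 0.0405) were higher. In ectopicFzd1 with DOX against control Lcn2 was lower at P7, with a log2 difference of -2.26 ± 0.56, and higher at P14, by 2.52 ± 0.60. These are descriptions too, since they rest on the control libraries that chose the genes.

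Of 15 further epithelial antimicrobial genes 13 were tested. With age in ectopicFzd1 with DOX 3 rose and 3 fell, where 34.4% of all genes were called, among them Dmbt1, a scavenger receptor of secretions (3.61 ± 0.56, adjusted p = 5.42e-07), the intelectin gene Itln1 (2.01 ± 0.43, adjusted p = 0.000146), the lysozyme gene Lyz1 (-3.38 ± 0.63, adjusted p = 1.8e-05) and the mucin gene Muc5b (-1.37 ± 0.32, adjusted p = 0.000606). In the knockout Dmbt1 was the 1 called, with a log2 difference of -1.05 ± 0.25 (adjusted p = 0.00845), and with DOX in ectopicFzd1 it was Muc5b (0.65 ± 0.17, adjusted p = 0.00748). Pigr, which carries immunoglobulin A across epithelium, was lower in ectopicFzd1 than in control with DOX at P7 (-2.43 ± 0.58) and higher at P14 (2.54 ± 0.60), again as descriptions.

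The type 2 list, known to raise Chil3 and Chil4 in other tissues, had 8 of 14 genes tested. With age in ectopicFzd1 with DOX, where 34.4% of all genes were called, 4 rose, among them the alarmin gene Il33 by 2.17 on the log2 scale and Clca1 by 3.19, and none of the 8 was called in the other 4 averaged comparisons. The cytokine gene Il13 had no count in 29 libraries. Of the interleukin 17 and 22 list 7 of 10 genes were tested. In the averaged comparisons Cxcl5, a neutrophil attractant, was the 1 called, with age, by 1.53. At single ages of the knockout Cxcl5 (1.568) and Cxcl1 (3.134) were called higher at P0, and Tnfaip3 (1.365) at P14. Between ectopicFzd1 and control with DOX Tnfaip3 was called higher at P1 (0.9694). At P7 Csf3 (-3.103), Cxcl5 (-1.379) and Cxcl1 (-2.674) were lower there, as a description. Il17a had no count in 58 libraries and Il22 in 53.

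Of 11 further S100 genes of the same cluster, all tested, S100a5 (a gene of olfactory sensory neurons) and S100a3 were lower with ectopic Fzd1, at -2.26 ± 0.22 (adjusted p = 3.85e-12) and -1.06 ± 0.32 (adjusted p = 0.0212), and S100a1 was higher, at 0.41 ± 0.09 (adjusted p = 0.00152). With DOX in ectopicFzd1 S100a5 rose by 2.07 ± 0.24 on the log2 scale (adjusted p = 3.81e-09). With age 4 of the 11 rose, where 34.4% of all genes were called. None was called in the knockout, and S100a5 was the 1 called between ectopicFzd1 and control with DOX, at -0.84 ± 0.19 (adjusted p = 0.0111).

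Markers of the tissue were found as labelled. All 10 genes of mature olfactory sensory neurons and all 6 of sustentacular cells, the supporting cells of the epithelium, were tested. Of the 10 neuron genes 9 were lower with ectopic Fzd1 and 8 were higher with DOX in ectopicFzd1, the comparison in which Chil4 rose. The part of that change in the make-up of the tissue in the CPM of Chil4 was not tested. All 10 rose with age in ectopicFzd1 with DOX, as did 5 of 6 sustentacular genes, while 6 of 9 macrophage genes, Csf1r and Mrc1 among them, fell. In the knockout 1 neuron gene, Omp, was higher, by 3.40 on the log2 scale (adjusted p = 2.8e-22 in edgeR), and between ectopicFzd1 and control with DOX it was the 1 neuron gene called, at -3.32. Omp is also the locus of the driver allele, and its level in control without DOX changed with age, as given above. By age the knockout differed from control by 1.38 (P0), 4.99 (P3), 5.15 (P7), 4.82 (P10) and 0.66 (P14, adjusted p = 0.563 by edgeR). The part of the driver allele in this difference was not tested. In the knockout 1 sustentacular gene, Cyp1a2, was lower, and 3 of 10 genes of Bowman glands and nasal secretion, Obp2a, Obp2b and Lcn3, were lower. With age 4 genes of glands and secretion rose and 2 fell, and with DOX in ectopicFzd1 Obp2a fell, as given above. Of the remaining lists none had a member called in the averaged comparisons of genotypes: eosinophil (2 of 5 tested), mast cell and basophil (3 of 7), B-lineage precursor (4 of 7), erythroid (7 of 9), bone (7 of 7) and ciliated cell (6 of 6). With DOX in ectopicFzd1 1 bone gene, Col1a1, fell. With age 5 bone genes rose, 2 ciliated cell genes rose and 1 fell, and 2 mast cell and 1 erythroid gene fell.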

How the data were processed

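Sequencing libraries of olfactory epithelium, 72 in all, were made from total RNA; the labels' protocols name TRIzol and a stranded kit with removal of ribosomal RNA. Per the submitters' processing notes, the authors used bcl2fastq 2.18, STAR 2.6.1c, RSEM and genome build mm10. Values in the deposited count table are whole numbers of reads for each gene (counts), and the deposited TPM table holds RSEM values scaled by the authors for length and library. Annotation release and strand setting are not given in the sources used here.

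Analysis of the counts used edgeR 4.0.16 in R 4.3.3. The function filterByExpr kept 22144 of 54532 genes, TMM scaled the libraries, and 1 quasi-likelihood model with a term for each of the 25 groups was fitted to all libraries. CPM are counts over the TMM-scaled library size. Averaged comparisons take the mean log2 fold change over ages, and errors are standard errors. Alternatives were DESeq2 1.42.0, its size factors, other filters, a fit on the compared groups, limma 3.58.1 on log2 TPM with pseudocounts of 1 and 0.1, the first digits of the title IDs as a covariate, subsets of libraries, and leaving out each library in turn with the genes and dispersion trend of the full fit. The fit without a filter read its dispersion trend from the filtered genes. The steps were also run on simulated counts with the same dispersion for every gene and, but for the changed genes, equal means in all groups. Such counts lack the wide spread of Chil4, so they do not show how its calls behave. Intervals and count floors cover counting error or the spread between libraries only.

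All 9 genes are named in every comparison, with up to 4 called members of each marker list by smallest p and the 3 genes most like each member. The members, the lists and the comparisons were chosen with earlier results of these data known. Positions and mRNAs came from GENCODE M21 and promoters from RefSeq.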

Additional observations from a re-analysis of the deposited data

How the results depend on the processing

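No paired analysis was possible because the labels give the libraries no replicate numbers, so a replicate block could not be fitted. Of the 3642 values of members in tested comparisons under the alternatives, 3478 kept their side of the threshold, 55 lost a call, 105 gained one and 4 turned in sign with a call on either side. A further 230 turned in sign with no call on either side. Calls of Chil4 and Chil3 between P1 and P14, of Chil4 with DOX at P10, of Ltf with DOX at P3 and of Chia1 at P1 held in every fit without 1 library.

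The count of age in ectopicFzd1 stayed at 3 on both TPM scales with other members, Chil4 higher and Chia1 and Ngp lower. The number of members called was, in the averaged comparisons, 0 with ectopic Fzd1 without DOX, 0 in the knockout, 0 for ectopicFzd1 with DOX, 1 with DOX in ectopicFzd1 and 3 with age. At single ages it was 0, 1, 5 and 2 in the first 4 of these, and 0 in both tests among ages. Of all gene tests at single ages 2.82%, 1.98%, 3.17% and 4.32% were called. For ectopicFzd1 with DOX the count was 1 with DESeq2 size factors, with a mean CPM of at least 1, on log2(TPM + 0.1), with DESeq2, with the title ID series (which could be estimated at P1 alone), without the 2 libraries against their labels, without P14 and without P3, and 2 without libraries above 20% in Gm10800. The shares of all genes called were, in this order, 1.05%, 1.16%, 0.163%, 1.64%, 15.3%, 0.652%, 0.569%, 2.46% and 1.6%, against 0.826% in the fit of all libraries. For DOX in ectopicFzd1 it was 0 with DESeq2 size factors and without P14, and 2 on the compared groups, on both TPM scales, without the 2 libraries against their labels and without libraries above 20% in Gm10800. The shares of all genes called were 9.14% and 9.28% where it was 0. Where it was 2 they were 9.94%, 15% and 13% (pseudocounts of 1 and 0.1), 8.32% and 10.2%, against 7.5% in the fit of all libraries. In the knockout it was 2 on both TPM scales, 1 with the title ID series (estimated at P14 alone) and 1 without libraries above 20% in Gm10800. With the title ID series 0.804% of all genes were called, and the other shares are given below. With age it was 1 on the compared groups, where 31.5% of all genes were called. At single ages it was 4 with ectopic Fzd1 on the compared groups (Chil4, Chil3, S100a8 and S100a9, all at P10) and 1 there with DESeq2 (Chil4 at P10). Of all gene tests at single ages 4.42% and 3.46% were called in these fits. In the knockout it was 3 and 4 on log2 TPM with pseudocounts of 1 and 0.1, and 5 without libraries above 20% in Gm10800. For ectopicFzd1 with DOX it was 1 on both TPM scales and 11 without libraries above 20% in Gm10800, where the share of all gene tests called was 2.58%, 0.584% and 4.85% against 3.17% in the fit of all libraries. All counts for ectopicFzd1 with DOX but those at P1 rest on control libraries that chose the genes and are descriptions. For DOX in ectopicFzd1 it was 1 on both TPM scales, where 3.72% and 2.32% of all gene tests were called. In the knockout test among ages it was 1 on the compared groups (0.941% of all genes called) and 4 without libraries above 20% in Gm10800. Leaving out P3 and leaving out libraries rich in Gm10800 were chosen after the data were seen. In the knockout the share of all genes called also moved, from 2.85% to 24.5% and 30.4% on the TPM scales and 8.21% without the libraries rich in Gm10800, and at single ages from 1.98% to 10.8%, 12.4% and 5.4%. In the test among ages it moved from 2.77% to 25.4% without those libraries. The causes of these changes were not tested.

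Without a filter the counts were 2 in the knockout, 3 for ectopicFzd1 with DOX, 2 for DOX in ectopicFzd1, 3 and 5 in the tests among ages with ectopic Fzd1 and in the knockout, and 4, 7, 15 and 6 at single ages. The shares of all genes called were, in this order, 1.12%, 0.46%, 2.24%, 0.804% and 4.75%. At single ages 1.19%, 1.56%, 1.1% and 1.37% of all gene tests were called. In that fit the prior degrees of freedom of edgeR were infinite, against 11.9 with the filter, so each gene's own spread between libraries carried no weight.

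Leaving out 1 library gave 0 to 1 calls with ectopic Fzd1, 0 to 1 in the knockout, 0 to 1 for ectopicFzd1 with DOX, 0 to 1 for DOX in ectopicFzd1 and 2 to 3 with age. At single ages it gave 0 to 0, 0 to 3, 3 to 7 and 2 to 3, and in the tests among ages 0 to 0 with ectopic Fzd1 and 0 to 2 in the knockout. Values that reversed were Reg3g with age, at -0.43 on both TPM scales (adjusted p = 0.393 and 0.4), and Chia1 in the knockout at P10, at -0.76 on log2(TPM + 1) (adjusted p = 0.0398) and -1.18 on log2(TPM + 0.1) (adjusted p = 0.0152 in limma). Depth limited Ngp, Camp and Chil3, and Chil4 before P7 except in control with DOX at P3, where 1 library held 1118 counts.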
